A study of Mus musculus with 17 samples.

Results

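The genes described here encode the proteins of the cytosolic ribosome. They were taken by symbol: Rpl or Rps followed by digits and an optional letter a, x or l, together with Rplp0, Rplp1, Rplp2 and Rpsa, and without symbols carrying -ps and without the Rps6k kinases. Of the 52636 genes in the single-cell data 82 met this rule, 32 of the small and 50 of the large subunit. Of the 28692 genes in the spot data 81 did, because Rps4l was not among the symbols. The rule also takes the paralogues Rpl3l, Rpl10l and Rpl39l, and it leaves out some genes of the same proteins (among them Fau, Rps3a1, Gnb2l1, Rpl22l1, Rpl36al and Rpl7l1), whose values are given separately.

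All samples came from wild-type (WT) B6 mice, and the labels give no treatment. Their age is not given in the sources used here, and neither is the number of animals behind the sections. Cells of the anterior thalamic nuclei, relay nuclei of the limbic system, had been microdissected from acute brain slices, dissociated and collected by hand into plates, so a well holds a hand-picked cell. Visium arrays, on which each spot collects the RNA of a small patch of tissue, carried 3 brain sections: posterior sections 2 and 6 and anterior section 5. Because a spot holds several cells, fewer cells of a type and less RNA per cell cannot be told apart in it.

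A ribosome joins a small subunit, which reads the mRNA, to a large subunit, which forms the peptide bond. Its proteins are made in near-equal numbers, and their mRNAs are among the most abundant in most cells. These mRNAs begin with a pyrimidine-rich stretch, the 5′ terminal oligopyrimidine tract, through which the mTOR kinase and the RNA-binding protein LARP1 set their translation together. In neurons, ribosomal protein mRNAs are also carried into axons and dendrites. An mRNA level is therefore a measure of the transcript and not of ribosome number.

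Promoter entries of RefSeq (GRCm38.p6) existed for 60 of the 82 genes. The sequences below show a feature found in part of the family, a pyrimidine run at or near the annotated transcription start. Rps6 is a small-subunit gene whose protein is phosphorylated downstream of mTOR. Rpl4 and Rplp0 are large-subunit genes that differed between neuron clusters. Rps27 and Rps27l are paralogues that changed by different amounts between tissue regions. Each sequence is 60 bases on the gene's strand, 5′ to 3′, with 40 bases before the annotated start and 20 after it. Capitals mark runs of at least 7 C or T that reach within 20 bases of the start, of which the last in Rps27 goes on past the bases shown.
Rps6, chr4:86857348-86857407, minus strand: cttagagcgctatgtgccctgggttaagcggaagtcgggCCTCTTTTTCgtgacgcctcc
Rpl4, chr9:64173347-64173406, plus strand: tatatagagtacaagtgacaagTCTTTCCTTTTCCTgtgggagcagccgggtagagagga
Rplp0, chr5:115559427-115559486, plus strand: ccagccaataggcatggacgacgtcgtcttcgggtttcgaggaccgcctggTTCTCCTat
Rps27, chr3:90213629-90213688, minus strand: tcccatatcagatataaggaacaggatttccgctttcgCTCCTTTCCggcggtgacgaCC
Rps27l, first of 2 entries, chr9:66946046-66946105, plus strand: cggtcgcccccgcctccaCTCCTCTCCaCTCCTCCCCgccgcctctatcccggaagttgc

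In Rps6 and Rps27 the run lies at the annotated start, in Rpl4 and Rps27l it ends before it, and in Rplp0 it follows it. Such a run was found in 37 of the 60 genes (61.7%) against 33.7% of all 27025 symbols with a promoter entry. The letters CCGGAA, a core of ETS-family sites, stood on either strand of the 300-base window (250 before and 50 after the start) in 33 of the 60 genes (55%) against 16.7% of all. The letters AANATGGC, a core of the YY1 site, stood on either strand in 11 of 60 (18.3%) against 6.96%. These are matches of letters and show no binding.

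The measurements rest on 904 cells with at least 1000 genes, of which 877 formed 4 neuron clusters and 27 carried oligodendrocyte genes. They came from 3 animals with 101, 317 and 459 neurons and a median of 49798, 8872 and 50553 counts per neuron. The 3 sections held 2794, 2540 and 2493 spots, with medians of 8990.5, 5313 and 7210 counts per spot for sections 2, 5 and 6. The markers of glutamatergic thalamic neurons, all 6 of 6, had counts in every neuron cluster. All 6 also had counts in the cells with oligodendrocyte genes, so having counts does not tell thalamic neurons from other cells. Scaled to total counts, their sum was lower in those cells than in any neuron cluster. Clusters and regions were built without the ribosomal protein genes, are called by 1 or 2 of their leading genes, and follow no anatomical annotation. They were still drawn from other genes of the same cells and spots. Of 4182 spot barcodes 2393 occurred in more than 1 section, which follows from the fixed positions of the array.

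Ribosomal protein mRNA took a different share of the neuronal counts in each of the 4 clusters. It was lowest in the Foxp1 Tnnt1 neurons, at 0.438, 0.327 and 0.352% of gene counts in animals 1, 2 and 3 (0.372% ± 0.0583, SD, n = 3 animals, 200 cells). The Car4 Ccdc141 neurons, the most numerous, had 0.554, 0.508 and 0.532% (0.531% ± 0.0231, n = 3, 446 cells). In the Calb2 Necab1 neurons the values were 0.790, 0.743 and 0.754% (0.762% ± 0.0243, n = 3, 192 cells). The C1ql2 neurons had 0.808, 0.842 and 0.871% (0.840% ± 0.0313, n = 3, 39 cells). They were few, with 6, 9 and 24 cells in animals 1, 2 and 3, and held 161375 gene counts in all in animal 2. The animals of neighbouring clusters did not overlap, and within each animal the order was the same. The 27 Mobp cells, which express myelin genes, lay between, at 0.568 and 0.606% in the 2 animals with at least 5 of them.

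Depth rose with this order, and the mean mitochondrial share fell with it except from the Calb2 Necab1 to the C1ql2 neurons. The median count per neuron ran from 6677 to 40143.5 over the animals in the Foxp1 Tnnt1 cluster and from 17642 to 131164 in the C1ql2 cluster. Mitochondrial genes took 2.93 to 4.88% of counts in the first and 1.76 to 2.80% in the second. Their mean share was 4.04% in Foxp1 Tnnt1, 3.14% in Car4 Ccdc141, 2.15% in Calb2 Necab1 and 2.38% in C1ql2 neurons. Across single neurons, Spearman's rho between total count and ribosomal protein share was 0.322, 0.468 and 0.418 in animals 1, 2 and 3 (n = 101, 317 and 459), as a description. After each neuron was thinned to 5000 counts, which left out 61 shallower neurons, the share stayed lowest in the Foxp1 Tnnt1 cluster in each animal (0.419, 0.328 and 0.302%). The thinned share of the C1ql2 neurons (0.740, 0.904 and 0.848%) was above that of the Calb2 Necab1 neurons (0.846, 0.749 and 0.800%) in animals 2 and 3 and below it in animal 1. The part that depth per cell or cell quality has in the remaining difference was not tested.

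**Figure D1:**
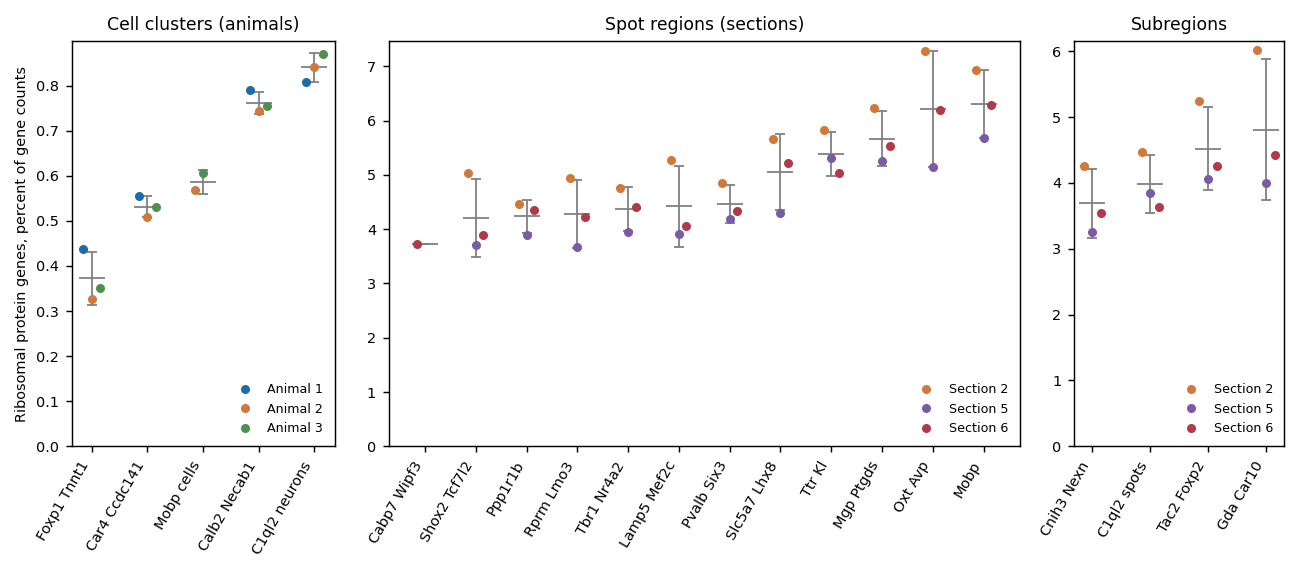
Share of gene counts in ribosomal protein genes, in percent, for cell clusters (points are animals 1 to 3), spot regions and subregions of the thalamic region (points are sections 2, 5 and 6). Lines are means and bars are 1 SD. Foxp1 Tnnt1 neurons were lowest at 0.372% and C1ql2 neurons highest at 0.840%. In the spot regions the means ran from 3.73 to 6.30% and in the subregions from 3.69 to 4.81%, and the scales of the panels differ.

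Gene by gene, each cluster was set against the mean of the other 3 on counts summed per animal. Of the 82 genes, 76 had enough counts to be tested (not Rpl10, Rpl10l, Rpl17, Rpl39l, Rpl3l and Rpl6l). In the Foxp1 Tnnt1 neurons 17 of the 76 fell and 0 rose at an adjusted p under 0.05 (edgeR's quasi-likelihood test, Benjamini-Hochberg), where 5.52% of all 11765 genes tested fell and 6.04% rose. Of the small subunit 7 of 32 fell and of the large subunit 10 of 44. The median log2 fold change of the 76 genes was -0.73 against 0.08 over all genes, and 72 of the 76 were negative. In the C1ql2 neurons 14 of the 76 rose and 0 fell, against 6.52% and 6.7% of all genes, with a median of 0.54 against -0.21 over all genes. They were 6 of 32 small-subunit and 8 of 44 large-subunit genes.

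Of the 17 genes that fell in the first cluster 12 (70.6%) also rose in the second, which is 85.7% of its 14. Because each cluster is part of the other's reference, the 2 comparisons share samples. Among these 12 genes were Rpl3, Rpl4, Rpl8, Rpl14, Rpl27a, Rplp0, Rplp1, Rps3, Rps9 and Rps14. Rpl32, Rpl34, Rplp2, Rps15 and Rps24 were called in the Foxp1 Tnnt1 neurons alone, and Rpl22 and Rps26 in the C1ql2 neurons alone.

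Among the small-subunit genes, Rps14, which encodes a protein of the platform where mRNA leaves the subunit, had 123, 103 and 109 counts per 1000000 gene counts (CPM) in the Foxp1 Tnnt1 neurons of animals 1, 2 and 3. In the other clusters it had 351, 202 and 209 CPM (Car4 Ccdc141), 351, 350 and 349 CPM (Calb2 Necab1) and 407, 291 and 330 CPM (C1ql2). Every Foxp1 Tnnt1 value lay below every other value, and the log2 fold change was -1.43 (SE 0.19, edgeR adjusted p = 0.000181). Rps3, at the mRNA entry, had 712, 607 and 570 CPM in the C1ql2 neurons (log2 fold change 1.01, SE 0.19, edgeR adjusted p = 0.0027), where animal 3 came close to the highest Calb2 Necab1 value of 566 CPM. Rps6 and Rpsa passed the test in no neuron cluster.

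In the large subunit, Rplp0, the base of the acidic stalk that recruits elongation factors, had 233, 223 and 229 CPM in the C1ql2 neurons of animals 1, 2 and 3. It had 37.3, 77.6 and 43.9 CPM in the Foxp1 Tnnt1 neurons, and no value of the other 3 clusters was above 156 CPM. Its log2 fold change was 1.40 in the C1ql2 neurons (SE 0.23, edgeR adjusted p = 0.000897) and -1.49 in the Foxp1 Tnnt1 neurons (SE 0.27, edgeR adjusted p = 0.0026). Its stalk partners Rplp1 and Rplp2 changed by -0.78 and -0.90 in the Foxp1 Tnnt1 neurons (edgeR adjusted p = 0.0239 and 0.0396). Rpl4, a core protein that lines the exit tunnel, had 178, 243 and 179 CPM in the Foxp1 Tnnt1 neurons. It reached 480, 713 and 597 CPM in the C1ql2 neurons, with no overlap between these 2 clusters, while the Calb2 Necab1 values of 540, 456 and 515 CPM overlapped with the higher ones (log2 fold change -1.20, SE 0.17, edgeR adjusted p = 0.000405 in the first, and 0.88, SE 0.15, edgeR adjusted p = 0.00124 in the second).

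These counts rested on few animals. Without animal 1, 33 genes fell in the Foxp1 Tnnt1 and 31 rose in the C1ql2 neurons, without animal 2 the counts were 4 and 5, and without animal 3 they were 3 and 3. In the Foxp1 Tnnt1 neurons Rps14 and Rpl4 passed with each animal left out, while Rplp0 did not pass without animal 3 (edgeR adjusted p = 0.115), and Rplp1 and Rplp2 did not without animal 2 (0.333 and 0.285) or 3 (0.335 and 0.44). Rplp0 and Rps3 passed each time in the C1ql2 neurons, where Rpl4 did not pass without animal 3 (edgeR adjusted p = 0.0587). When only neurons at or under the median mitochondrial share of 3.04% were kept, 4 genes fell in the first cluster and 4 rose in the second.

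**Figure D2:**
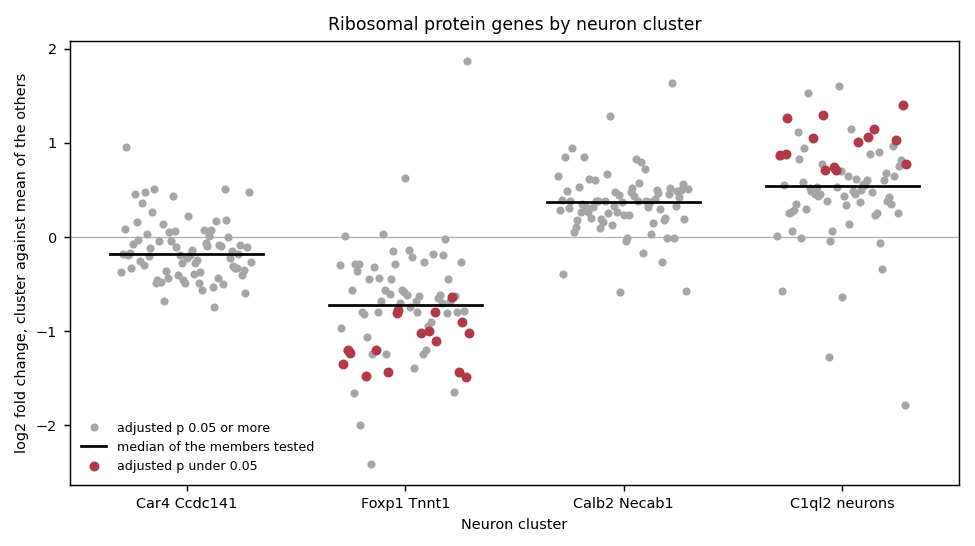
Log2 fold change of each of the 76 tested ribosomal protein genes in a neuron cluster against the mean of the other 3 clusters. Each point is a gene, red points had an adjusted p under 0.05, and bars are medians. The median was -0.73 in Foxp1 Tnnt1 neurons with 17 red points, and 0.54 in C1ql2 neurons with 14.

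The other clusters gave no call. In the Car4 Ccdc141 neurons 0 of 76 genes passed in either direction in edgeR and 0 in DESeq2, with 1 at an unadjusted p under 0.05, where 0.85% of all genes rose and 0.416% fell. In the Calb2 Necab1 neurons 0 of 76 passed in edgeR and 1 in DESeq2, with 13 at an unadjusted p under 0.05, where 1.33% of all genes rose and 0.306% fell. Their median log2 fold change was 0.38, and 67 of the 76 values were positive. The leading genes of this cluster include Gad1 and Gad2, which make GABA. Its 5 GABA neuron markers summed to 199 to 746 CPM per animal, against 0 to 43.4 CPM in the other 3 clusters, all 5 had counts, and 14 of its 192 cells had at least 3 markers of another cell type. With cells of at least 3 such markers left out, 0 of the 76 genes passed again and the median was 0.34.

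Some of the other translation and energy lists moved with the same clusters. Over all genes, 5.52% fell in the Foxp1 Tnnt1 and 6.52% rose in the C1ql2 neurons. Of 88 nuclear genes of oxidative phosphorylation, 64 fell in the Foxp1 Tnnt1 neurons, and in the C1ql2 neurons 60 rose and 1 fell. Mitochondrial ribosomal proteins, which build the separate ribosome of the mitochondrion, fell for 25 of 79 in the first and rose for 21 of 79 in the second. Of 9 elongation factors and partners 4 fell in the first and 3 rose in the second. Initiation factors moved less, with 5 of 33 lower in the first and 3 higher in the second. For ribosome assembly genes these counts were 2 and 3 of 21. Of 12 genes that control translation of ribosomal proteins 1 fell in the Foxp1 Tnnt1 and 1 in the C1ql2 neurons, where 5.52% and 6.7% of all genes fell. Over the 12 sums of animal and cluster, the genes whose CPM followed the ribosomal protein share most closely by Spearman's rho were Arl6ip1 (1), Gstm5 (0.993), Pgp (0.993) and Cox7c (0.986). The sums share animals and clusters, so this is a description.

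In the spots these genes took 3.68 to 7.28% of gene counts over all regions and sections. Levels of cells and spots come from tables that were counted and normalized separately, and no test crosses them. The lowest regional means were in the spots led by thalamic genes (Shox2 Tcf7l2: 5.03, 3.71 and 3.89% in sections 2, 5 and 6), by striatal genes (Ppp1r1b: 4.47, 3.90 and 4.35%) and by deep and upper cortical genes (Rprm Lmo3, Tbr1 Nr4a2 and Lamp5 Mef2c, with means of 4.28, 4.37 and 4.42%). The highest were the Mobp region, led by myelin genes (6.93, 5.68 and 6.28%), and the Oxt Avp region, led by hypothalamic peptides (7.28, 5.15 and 6.20%). The Ttr Kl region (5.83, 5.30 and 5.03%), the Mgp Ptgds region (6.22, 5.25 and 5.52%), the Slc5a7 Lhx8 region (5.65, 4.29 and 5.21%) and the Pvalb Six3 region (4.85, 4.19 and 4.33%) lay between. A 12th group, Cabp7 Wipf3, with 64 spots of section 6, had 3.73% and was not tested.

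Section 2 was highest in each of the 11 regions. Over all its spots it had 5.35%, against 4.26% in section 5 and 4.62% in section 6. Section 2 is posterior and so is section 6, while the anterior section 5 is the only one of its kind and has no replicate, so anterior and posterior were not tested. Section 2 also held the most counts per spot. The spread between sections (SD 0.301 to 1.06 percentage points within a region) was as large as most gaps between neighbouring regions, and the tests below therefore compare regions within a section.

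All 78 genes tested (81 without Rpl10l, Rpl39l and Rpl3l) passed in at least 1 region, and 77 both rose in 1 region and fell in another. How many of all 12887 genes did so was not counted, so these totals do not set the family apart from other genes. In single regions 10.8 to 27.7% of all genes rose and 8.23 to 26% fell. Each region was set against the mean of the others, so a rise in 1 region lowers the values of others. In the Mobp region 72 of 78 rose and 0 fell (edgeR, adjusted p under 0.05), where 22.5% of all 12887 genes rose and 24.3% fell. All 31 small-subunit genes rose and 41 of 47 large-subunit genes did. The median log2 fold change was 0.45 against -0.04 over all genes. Rpl3, Rpl6, Rpl6l, Rpl10a, Rpl15 and Rpl27 did not pass. In the Shox2 Tcf7l2 region 68 of 78 fell and 0 rose, against 12.5% and 17.5% of all genes, with a median of -0.29. There 30 of 31 small-subunit and 38 of 47 large-subunit genes fell. Of the 72 genes and the 68 genes, 67 were shared (93.1% and 98.5%), in comparisons that share samples.

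The remaining regions sorted into higher and lower ones. In the Mgp Ptgds region, led by genes of meninges and vessels, 59 rose and 0 fell (16.3% and 9.02% of all genes). In the Oxt Avp region 57 rose and 3 fell (20.8% and 18.3%), and in the Ttr Kl region, led by choroid plexus genes, 51 rose and 1 fell (27.7% and 26%). Genes fell in the regions led by cortical and striatal genes: 66 in Rprm Lmo3 with 0 rising (16.5% and 21.9% of all genes fell and rose), and 52 in Tbr1 Nr4a2 with 1 rising (19.5% and 23.7%). In Lamp5 Mef2c 48 fell and 1 rose (21.9% and 25.3%), and in Ppp1r1b 41 fell and 2 rose (19.8% and 24.8%). The Pvalb Six3 region, led by genes of GABA neurons, had 25 lower and 0 higher (8.23% and 10.8%). In the Slc5a7 Lhx8 region, with cholinergic genes, 1 rose and 2 fell (15.8% and 11.1%), and the median was 0.01. Leaving out section 6 moved the Shox2 Tcf7l2 count to 44, the Lamp5 Mef2c count to 19 and the Pvalb Six3 count to 13, leaving out section 2 moved the last to 8, and without section 5 the Slc5a7 Lhx8 region had 0 calls. Whether the sections come from separate animals is not given. With the section as a block, these p-values measure only how far the differences between regions vary over these 3 sections.

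Cell content moved with these calls. The 3 neuronal markers (Snap25, Rbfox3 and Syt1) summed to 818 to 1152 CPM in the Mobp region, 450 to 656 CPM in the Ttr Kl region and 1478 to 1719 CPM in the Oxt Avp region. They reached 3127 to 3621 CPM in the Shox2 Tcf7l2 region and 4110 to 6320 CPM in the 3 cortical regions. Other regions did not follow that order. The Mgp Ptgds region, with 59 genes higher, had 2762 to 3676 CPM. The Ppp1r1b region (2432 to 2570 CPM), the Pvalb Six3 region (2427 to 2548 CPM) and the Slc5a7 Lhx8 region (2326 to 2565 CPM) lay at like levels, with 41, 25 and 2 genes lower. The 6 oligodendrocyte markers, all with counts, summed to 46382 to 60243 CPM in the Mobp region and to 5875 to 6523 CPM in the Shox2 Tcf7l2 region. The Mobp region was also the shallowest in each section, with median counts per spot of 5623.5, 2408.5 and 3670.5, whereas the Ttr Kl region was the deepest in section 2 with 15497. The part of cell content and depth in the regional differences was not tested.

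**Figure D3:**
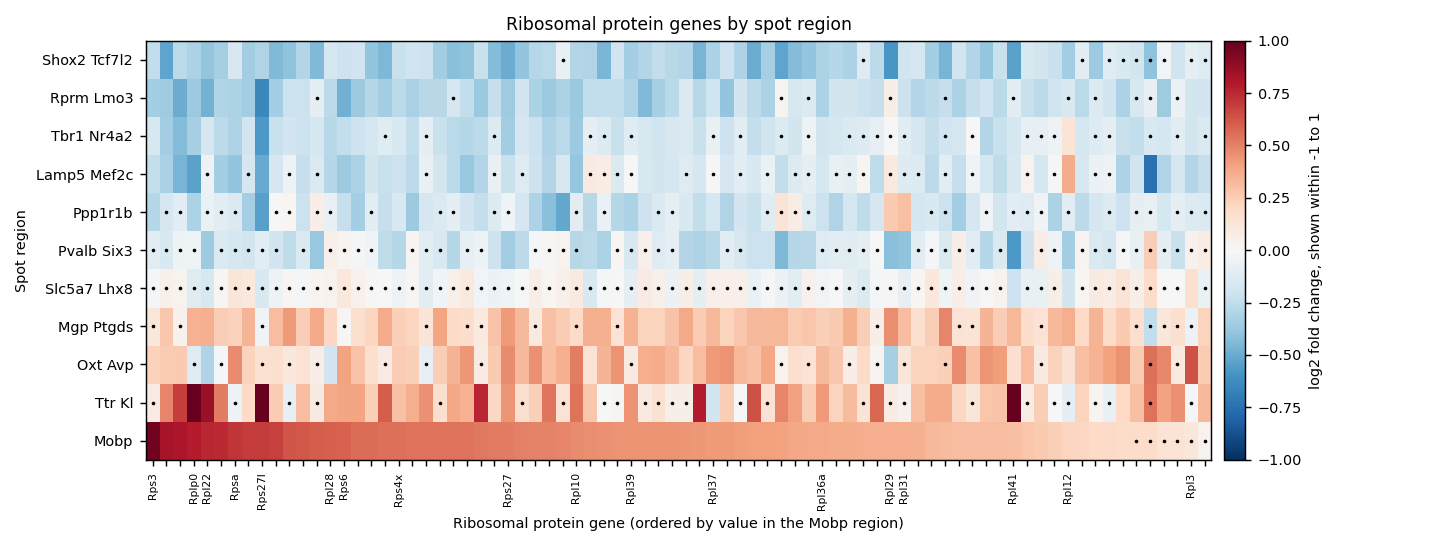
Log2 fold change of 78 ribosomal protein genes (columns, ordered by their value in the Mobp region) in 11 spot regions (rows), each region against the mean of the other 10. Red is higher and blue lower, with the scale ending at -1 and 1, a dot marks a value that did not pass the test, and symbols are given for genes described in the text. The Mobp row is red with 72 calls, the Shox2 Tcf7l2 row blue with 68, and Rps27l, Rpl41 and Rplp0 stand out in the Ttr Kl row.

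Against this common pattern a few genes had their own. Rps27l, a paralogue of Rps27 and a known target of p53, had 251, 218 and 202 CPM in the Ttr Kl region of sections 2, 5 and 6. Its 30 values in the other 10 regions ran from 35.1 to 109 CPM, the highest in the Mobp region, so the Ttr Kl values stood apart. The log2 fold change was 2.00 (SE 0.10, edgeR adjusted p = 1.18e-32). Rps27 itself had 693, 563 and 502 CPM there and changed by 0.44 (SE 0.08, edgeR adjusted p = 5.76e-06). Rps27 also rose in the Oxt Avp region, by 0.47 (SE 0.07, edgeR adjusted p = 2.6e-07), where Rps27l changed by 0.16 and did not pass (edgeR adjusted p = 0.262).

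Rpl41, the smallest ribosomal protein, had 1588, 1874 and 2084 CPM in the Ttr Kl region against at most 1354 CPM elsewhere (log2 fold change 1.08, SE 0.06, edgeR adjusted p = 1.16e-27). It fell by 0.57 on the log2 scale in the Pvalb Six3 and by 0.53 in the Shox2 Tcf7l2 region (edgeR adjusted p = 7.06e-09 and 3.99e-10). Rplp0 had 423, 431 and 350 CPM in the Ttr Kl region and 370, 328 and 379 CPM in the Mobp region, with no value above 299 CPM in the other 9 regions. The changes were 1.03 (SE 0.08, edgeR adjusted p = 3.8e-21) and 0.79 (SE 0.07, edgeR adjusted p = 1.84e-16). Rplp0 did not rise in the Oxt Avp region, where its log2 fold change was -0.13 (edgeR adjusted p = 0.185).

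Rpl22 and Rpl22l1 encode alternative forms of the same large-subunit protein, and Rpl22l1 lies outside the symbol rule. Rpl22 had 488, 439 and 537 CPM in the Mobp region and 534, 535 and 452 CPM in the Ttr Kl region, above its 27 values of 206 to 409 CPM elsewhere. It changed by 0.75 in the first (SE 0.07, edgeR adjusted p = 4.54e-16) and 0.87 in the second (SE 0.07, edgeR adjusted p = 7.54e-18). In the Oxt Avp region Rpl22 changed by -0.30 (SE 0.08, edgeR adjusted p = 0.000914), a call that was lost without section 5 (0.0648). Rpl22l1 ran the other way, with 323, 203 and 222 CPM in the Mobp region and 887, 601 and 685 CPM in the Oxt Avp region. Its changes were -0.57 (SE 0.08, edgeR adjusted p = 7.07e-10), -0.29 in the Ttr Kl region (SE 0.08, edgeR adjusted p = 0.00108) and 0.95 in the Oxt Avp region (SE 0.06, edgeR adjusted p = 2.01e-24). All 3 Oxt Avp values of Rpl22l1 were above every value of it in the other regions.

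**Figure D4:**
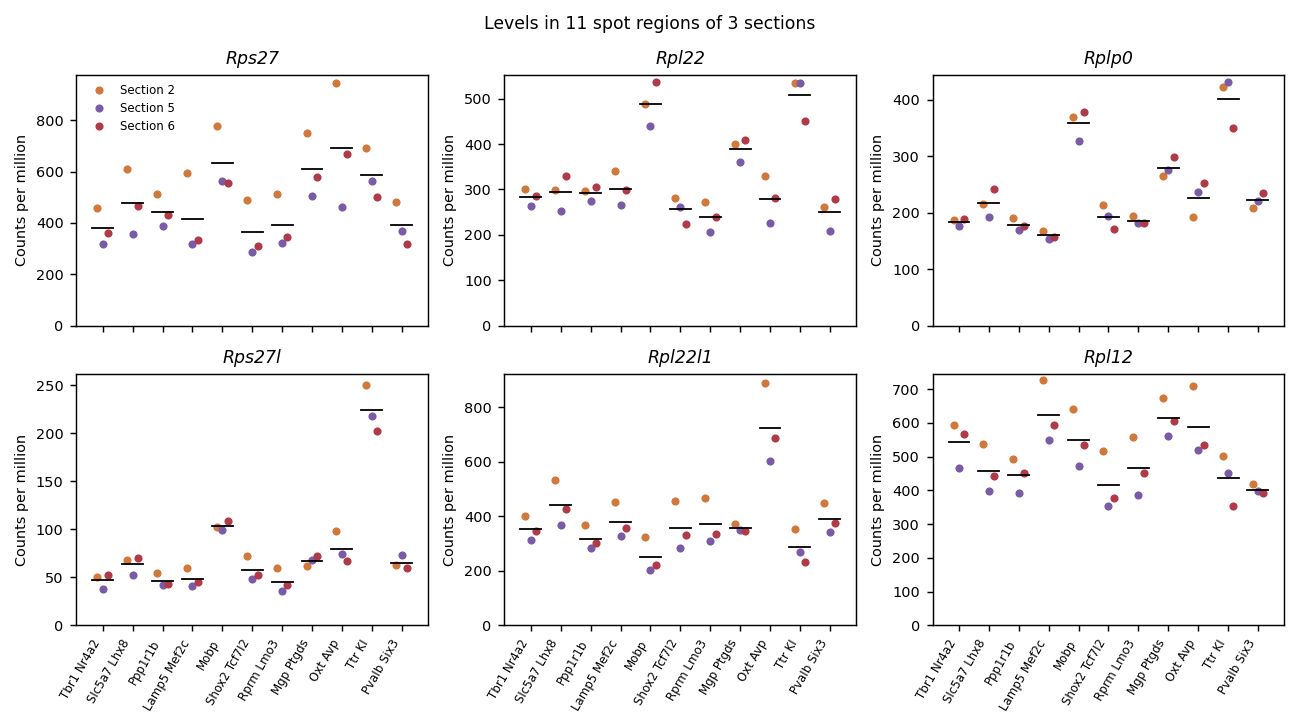
CPM (counts scaled to 1000000 per sum) of Rps27, Rps27l, Rpl22, Rpl22l1, Rplp0 and Rpl12 in 11 spot regions. Points are sections 2, 5 and 6 and lines are means, and each panel has its own scale. Rps27l is highest in the Ttr Kl region at 202 to 251, and Rpl22l1 in the Oxt Avp region at 601 to 887, where Rpl22 is low.

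Other genes left the pattern in single regions. Rps3 had the largest rise of the 78 in the Mobp region, with 1018, 973 and 1052 CPM against at most 791 CPM elsewhere (log2 fold change 0.97, SE 0.06, edgeR adjusted p = 3.02e-25). Rpl3, which shapes the peptidyl transferase centre, did not pass there (0.11, edgeR adjusted p = 0.129) but led in the Oxt Avp region with 1196, 935 and 1004 CPM (0.64, SE 0.06, edgeR adjusted p = 1.84e-16). Rpl12, at the base of the stalk, was higher in the Lamp5 Mef2c region, where 48 others were lower, with 726, 549 and 592 CPM (0.37, SE 0.06, edgeR adjusted p = 7.44e-08). The sections of Rpl12 overlapped with those of other regions, and the change holds within each section against the mean of the other regions. In the Ppp1r1b region Rpl31 and Rpl29 rose by 0.30 and 0.26 (SE 0.06 and 0.07, edgeR adjusted p = 1.06e-05 and 0.00159). In the Oxt Avp region Rpl29 fell by 0.34 (edgeR adjusted p = 0.000837), a call lost without section 5 (0.0905). Rpl28, the other gene to fall there with Rpl22, lost its call without section 2 (0.0807) or 5 (0.177). The call of Rpl12 in the Tbr1 Nr4a2 region, the only gene to rise there, and that of Rpl37 in the Ttr Kl region, the only one to fall, were lost with any 1 of the 3 sections left out (edgeR adjusted p = 0.0738 to 0.434 and 0.0668 to 0.22). Of the Slc5a7 Lhx8 calls, Rpl3 rose and Rpl12 and Rpl41 fell, and each was lost without section 5 (0.0956, 0.155 and 0.206).

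Of the genes with set roles, Rps6 rose by 0.59 in the Mobp region (SE 0.06, edgeR adjusted p = 1.7e-14) and by 0.40 in the Oxt Avp and Ttr Kl regions (edgeR adjusted p = 2.37e-08 and 1.41e-07). In the Shox2 Tcf7l2 region it changed by -0.21 (edgeR adjusted p = 0.0061), which was lost without section 5 (0.0787) or 6 (0.0965). Rpsa, a small-subunit protein also known as a laminin receptor, rose by 0.71 in the Mobp and 0.47 in the Oxt Avp region (edgeR adjusted p = 8.51e-18 and 4.15e-10) and changed by -0.05 in the Ttr Kl region (edgeR adjusted p = 0.602). The genes lie on 19 chromosomes, and 4 of them, Rpl10, Rpl36a, Rpl39 and Rps4x, on the X. In the Mobp region these 4 changed by 0.47, 0.38, 0.45 and 0.55, within the range of the other genes there (0.03 to 0.97).

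Ribosomal protein genes outside the symbol rule moved in part with the others. In the Mobp region Rps3a1 rose by 0.70, Fau by 0.41 and Gnb2l1 by 0.32 (edgeR adjusted p = 4.43e-17, 2.21e-07 and 3.13e-05). Fau encodes a ribosomal protein fused to a ubiquitin-like protein, and Gnb2l1 encodes the ribosome-bound scaffold Rack1. The paralogues Rpl36al and Rpl7l1 changed there by -0.05 and -0.26 and did not pass (edgeR adjusted p = 0.674 and 0.13). Over the 33 sums of section and region, genes close to the ribosomal protein share by Spearman's rho were Rps3a1 (0.923), Gnb2l1 (0.866) and Pfdn5 (0.833), the first 3 in order. The sums share sections, so these are descriptions.

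Counts of some of the other lists across regions were as follows, to be read beside the shares of all genes given above for each region. In the Mobp region, 4 of 89 nuclear genes of oxidative phosphorylation rose and 67 fell, and 4 of 76 mitochondrial ribosomal proteins rose and 29 fell. Of 9 elongation factors and partners, 6 rose and 2 fell. In the Ttr Kl region 42 oxidative phosphorylation genes rose and 15 fell, and in the Pvalb Six3 region 67 rose and 0 fell while 25 ribosomal protein genes fell. Elongation factors fell for 5 of 9 in the Shox2 Tcf7l2 and 7 of 9 in the Lamp5 Mef2c and Rprm Lmo3 regions each, with 1 rising in each.

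Within the thalamic Shox2 Tcf7l2 region, 4 subregions were compared in the same genes. Their shares in sections 2, 5 and 6 were 4.26, 3.26 and 3.55% in the Cnih3 Nexn spots, 4.47, 3.84 and 3.63% in the C1ql2 spots, 5.24, 4.07 and 4.26% in the Tac2 Foxp2 spots and 6.02, 3.99 and 4.42% in the Gda Car10 spots. The last subregion carries Oxt and Avp among its leading genes, and its 7 hypothalamic markers (5 of them with counts) summed to 65.6 to 3411 CPM. In the Cnih3 Nexn spots 34 of 77 genes tested fell and 0 rose (edgeR), where 5.48% of all 6757 genes fell and 7.55% rose, with a median log2 fold change of -0.25. In the Gda Car10 spots 20 rose and 0 fell (4.25% and 3.73%), with a median of 0.24. The Tac2 Foxp2 spots had 0 calls in edgeR and 0 in DESeq2, with 13 at an unadjusted p under 0.05 (3.37% of all genes rose and 2.35% fell).

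Rpl10, a large-subunit protein added late in assembly, had 186, 131 and 188 CPM in the Cnih3 Nexn and 336, 243 and 343 CPM in the Gda Car10 spots, so the 2 subregions did not overlap. Its log2 fold changes were -0.58 (SE 0.12, edgeR adjusted p = 0.000156) and 0.55 (SE 0.13, edgeR adjusted p = 0.00126), the second lost without section 2 (0.0649). Leaving out a section lowered the Cnih3 Nexn count to 14, 18 and 18 (without section 2, 5 and 6) and the Gda Car10 count to 4 and 13 (without section 2 and 6).

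In the C1ql2 spots 4 of 77 genes tested fell and 0 rose (5.99% and 7.55% of all genes fell and rose). The 4 were Rpl37, Rpl9, Rps15 and Rps24, and as a count they do not exceed the share of all genes that fell. Rpl37 had 768, 751 and 662 CPM there, against 679 to 1554 CPM in the other subregions, so the groups overlapped, and it changed by -0.43 within sections (SE 0.10, edgeR adjusted p = 0.000736), a call lost without section 2 (0.0546) or 6 (0.0525). The count was 1, 7 and 0 without section 2, 5 and 6. The ribosomal protein share of the C1ql2 spots differed from the mean of the other 3 subregions by -13.5, 1.82 and -10.9% of that mean in sections 2, 5 and 6. In the C1ql2 neurons the share was 36.1, 60.1 and 59.5% above the mean of the other 3 clusters in animals 1, 2 and 3, while oxidative phosphorylation genes were higher in both, with 60 of 88 rising in the neurons and 50 of 84 in the spots. The difference between neurons and spots was not tested.

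The single-cell plates held wells labelled as controls, which allow the neurons to be set against other RNA in the same table. In the 40 of 56 wells labelled qRNA that had at least 1000 genes, on 10 plates, ribosomal protein genes took 5.78 to 6.65% of gene counts per plate (median 6.35%), against 0.473 to 0.664% in the neurons of 12 plates. What this RNA is was not given in the sources used here, and the neuronal marker Snap25 had at most 13.3 CPM in it against 2416 to 3676 CPM in the neurons. Only genes with at least 50 counts in the control wells were compared, so genes entered through the group where they were high. This left out Rps4l, Rpl10l and Rpl3l, with 0 control counts and 42.5, 1.14 and 0.819 CPM in neurons, and Rpl6l with 2 control counts. Of the 78 ribosomal protein genes compared, 70 were at or under 1/4 of their control-well level in neurons, against 24.4% of 8529 genes. The median ratio was 0.111 against 0.682 over all genes. Among the 78, the highest ratios were those of Rps2 (2.37), Rpl5 (0.914) and Rps18 (0.866), which had few counts in the control wells (70, 80 and 121). Their levels in neurons were 38.1, 16.7 and 24.0 CPM, at 0.135, 0.0359 and 0.0767 of the thalamic Shox2 Tcf7l2 spots. Rpl9 and Rpl17, with 104 and 112 control counts, had ratios of 0.288 and 0.156. The part of low control counts in the highest ratios was not tested.

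Genes with at least 50 counts in the thalamic spots were set against them in the same way. In neurons 62 of 77 ribosomal protein genes were at or under 1/4 of the spot CPM, against 8.26% of 9339 genes. The median ratio was 0.0885 against 1.01 over all genes. Rpl8, another protein of the peptidyl transferase centre, was nearest to equal, with 503 CPM in neurons and a ratio of 0.977, and Rps3 (0.697), Rpl4 (0.674) and Rplp0 (0.633) were among those that followed. Rpl17, at 4.01 CPM in neurons, was lowest at 0.00465. The control wells, set against the same spots, also had high ratios for Rpl8, Rps3, Rpl4 and Rplp0 (12.3, 7.10, 6.02 and 17.5) and a low one for Rpl17 (0.0297). The part of neurons and the part of the separate tables in the ratio of a gene were not tested. Ribosomal protein genes have many processed copies in the genome, and the single-cell table lists 276 symbols with -ps for them. The median ratio was 0.209 for the 19 genes with no such symbol, 0.0882 for the 38 with 1 to 4 and 0.0605 for the 20 with 5 or more. For control wells against these spots the medians were 2.05, 0.659 and 0.379. How reads shared with such copies were counted is not given in the sources used here, so levels of genes with many copies are uncertain, and the part of the counting in the ratio was not tested. The ratio of neurons to control wells, which were counted alike, had medians of 0.101, 0.119 and 0.144 in the same 3 groups.

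**Figure D5:**
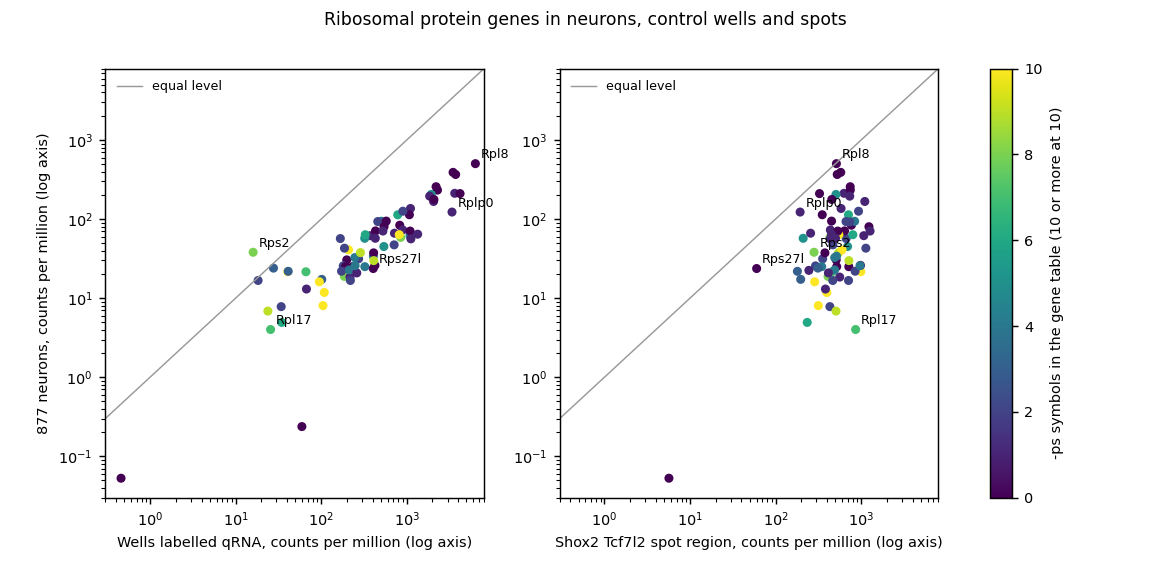
CPM (counts scaled to 1000000 per sum) of each ribosomal protein gene in 877 neurons against wells labelled qRNA (left) and against the thalamic Shox2 Tcf7l2 spots (right), on log axes. Genes without a count on either axis are not shown. Each point is a gene, its colour is the number of -ps symbols of that gene, and the line marks equal levels. Most points lie below the line, with medians at 0.111 and 0.0885 of equality over genes with at least 50 counts in the control wells or spots. Rps2, with 70 counts in the control wells, is above the line on the left, and Rpl8 is nearest to it on the right.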

How the data were processed

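Both deposited tables hold unnormalized whole-number counts, of genes by wells and of genes by spots, per the file headers. The deposited well and spot lists give, per the file headers, the animal, plate and label of each well and the section of each spot (other units). The submitters' processing notes name Seurat, Space Ranger and the builds NCBIM37 and mm10 without their roles. The aligner, the counting step and whether reads or molecules were counted in the wells are not given in the sources used here. No intervals are printed. Each SE is the size of the log2 fold change over the square root of the F value of the edgeR test.

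The members and lists were chosen with earlier results of these data known. No label ties the 14 single-cell samples to the 14 plates, so the animal recorded for each well is the replicate. Of 1344 wells, 1216 carried a cell, and 9 wells of another source were left out. Wells with at least 1000 genes were kept. Spike-ins and reporters stayed out of all totals. Counts scaled to 10000 and log-transformed, without the 82 members, gave 2000 variable genes, 30 principal components and 15 neighbours for Leiden clustering at resolution 0.5 (scanpy 1.11.5, leidenalg 0.10.2). No doublets were called, since cells were picked by hand; spots were not separated into cell types. The spot region highest in thalamic markers was clustered again into subregions.

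Sums of counts over at least 5 cells or spots, by cluster within an animal or region within a section, entered edgeR 4.0.16 under R 4.3.3. Its quasi-likelihood test used TMM factors, the low-count filter filterByExpr and the animal or section as a block, each group against the mean of the others, with Benjamini-Hochberg adjustment over all genes tested and a threshold of 0.05. The block rests on clusters taken from the same animal or section, and deviations of such sums had a median correlation of 0.0722 for animals, 0.0778 for sections and 0.0965 for sections in the subregions, against -0.0497, -0.0497 and -0.0539 for other pairs. CPM are counts of a sum scaled to 1000000. Rises were simulated in 1 group of each set: the Foxp1 Tnnt1 neurons, the Slc5a7 Lhx8 region and the Tac2 Foxp2 spots. In the neurons 10% of 2-fold and 58% of 4-fold rises were recovered (11765 genes). In the region 93% and 100% were recovered (12887 genes), and in the subregion 95% and 100% (6757 genes). False calls were 6.85, 5.85 and 5.34% of the calls. Falls, smaller changes and the other groups were not simulated.

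For each comparison the named genes are the 6 with the smallest adjusted p in each direction, with a set of fixed genes (stalk, X-linked and paralogous members, Rps6, Rps14, Rpl4, Rpsa, Rps27a). Genes of counts of 5 or fewer, and those at the ends of the ratios to control wells and spots (Rps2, Rpl5, Rps18, Rpl8, Rpl17 and others), were named after their values were seen. Alternatives were DESeq2 1.42.0, total-count scaling, scaling over other genes, no filter, no block, clustering with the members, other limits on cells and spots, thinning, and each animal or section left out. Scaling over other genes (outside the members and oxidative phosphorylation) and leaving out cells with at least 3 markers of another cell type were chosen after seeing the data. Symbols were matched to RefSeq chromosomes and promoters (GRCm38.p6). Some genes are not reported here, though counts and medians over the members include them.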

Additional observations from a re-analysis of the deposited data

Results flagged for a closer look

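Ribosomal protein genes were measured in wells outside the comparisons of neurons. The 40 wells labelled qRNA with at least 1000 genes had a median of 6.35% of gene counts in these genes over 10 plates, and the 4 wells labelled ERCC on 1 plate had 6.24%. The neurons of 12 plates had at most 0.664%. The name of the ERCC wells matches that of the spike-ins, and the other 52 wells so labelled had 2 to 452 genes each. On this plate the 4 ERCC wells had 3606 to 3854 genes and the 4 qRNA wells 94 to 234, the reverse of the other plates with qRNA wells of at least 1000 genes. Whether the 2 labels are exchanged on this plate is not given in the sources used here, so the 6.24% may belong to either kind of well.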

How the results depend on the processing

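Of 197 recomputed counts of calls 144 stayed within 1.5 times the reported value and 53 moved beyond it. Each count was taken in a set direction or in either, so a turn of direction could not show in it. Of 860 recomputed named genes 733 kept their call and 127 lost it with the same sign. Of 95 recomputed shares 88 stayed within 1 SD. Where no cause is given below, the cause was not tested.

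In neurons, keeping cells at or under the median mitochondrial share left 4 genes lower in Foxp1 Tnnt1 and 4 higher in C1ql2, with fewer cells. Without the filter on low counts they were 10 and 8, with 3 calls in Calb2 Necab1. Leaving out cells with 3 markers of another cell type gave 11 in Foxp1 Tnnt1. Thinning gave 9 in C1ql2 and 6 in Calb2 Necab1, and DESeq2, scaling over other genes and total-count scaling gave 1 each in Calb2 Necab1. With each animal left out, the counts ran from 3 to 33 in Foxp1 Tnnt1, 3 to 31 in C1ql2 and 0 to 7 in Calb2 Necab1.

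Without the replicate block (the section), the paired clusters of a section are treated as unrelated, and the calls were 14 in Tbr1 Nr4a2, 14 in Ppp1r1b, 24 in Lamp5 Mef2c, 30 in Shox2 Tcf7l2, 30 in Rprm Lmo3, 6 in Pvalb Six3, 25 in Mgp Ptgds, 31 in Oxt Avp and 0 in Slc5a7 Lhx8. In the subregions without the block they were 9 in Cnih3 Nexn, 4 in Gda Car10 and 0 in C1ql2. The block moved no other count by over 1.5 times.

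For regions, no filter gave 33 in Tbr1 Nr4a2, and total-count scaling gave 62 in Ppp1r1b and 5 in Slc5a7 Lhx8. With each section left out the ranges were 8 to 22 in Pvalb Six3, 0 to 3 in Slc5a7 Lhx8, 19 to 66 in Lamp5 Mef2c and 44 to 69 in Shox2 Tcf7l2. For subregions, DESeq2 gave 15 in Cnih3 Nexn, 11 in Gda Car10 and 1 in C1ql2, no filter gave 19 in Cnih3 Nexn, and total-count scaling gave 2 in Tac2 Foxp2. Clustering with the members joined the Tac2 Foxp2 and Gda Car10 spots, with 15 calls in Cnih3 Nexn and 35 in the joined subregion, and no value for Gda Car10. With each section left out the ranges were 14 to 18 in Cnih3 Nexn, 4 to 26 in Gda Car10 and 0 to 7 in C1ql2.

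The mean of single cells gave a share of 0.504% in Car4 Ccdc141. Over nuclear genes alone the shares were 4.84% in Tbr1 Nr4a2, 4.82% in Ppp1r1b, 7.06% in Mobp, 6.75% in Mgp Ptgds, 5.94% in Ttr Kl and 5.01% in Pvalb Six3, since mitochondrial counts leave the total.

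Depth was lowest in animal 2 and section 5, and the 3 animals and 3 sections limit the precision of every test. Leading genes name clusters and regions, so their boundaries follow the clustering and no histology.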
